A study of Rattus norvegicus with 6 samples.

Results

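The miR-29 family was followed in small RNA sequencing of the lumbar spinal cord of rats with bone cancer pain (BCP) and sham-operated rats, with 3 libraries in each group. Its members were the rows of the table of known mature miRNAs whose names begin with rno-miR-29a, rno-miR-29b or rno-miR-29c, whatever the arm, which gave 7 of the 753 listed miRNAs. The BCP rats received living Walker 256 cells, a rat mammary carcinoma line, in the marrow cavity of the left tibia, and the sham-operated rats received heat-killed cells of the same line. The cord was taken on day 14 from the injected side, without meninges. The labels number the libraries of a group as replicates, and the study calls them biological replicates of their group. Neither says whether a library came from a single animal or from a pool, and each is called a rat here. The p-values measure the spread between these biological replicates, which may be in part technical. The labels give the strain as Wistar in both groups, whereas the study's methods give female Sprague Dawley rats, and neither gives an age. Because the sham-operated rats also had bone surgery and dead tumor cells, the comparison shows what living tumor adds to both.

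miR-29 is a family of small regulatory RNAs that pair through their seed, bases 2 to 8 from the 5′ end, with target messenger RNAs and lower their output. Its best known targets encode collagens, elastin and other proteins of the extracellular matrix, and it also targets the DNA methyltransferases that write new methylation marks. In the nervous system the family is known to rise as neurons mature. Each precursor is a hairpin whose 2 arms, 5p and 3p, are cut out as a duplex, and the arm that is kept by Argonaute is usually the 3p arm in this family.

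The 3 members from the 3p arm, shown here because their differences bear on how their reads can be told apart, share 1 seed, which is given in capitals. The sequences are from RefSeq (GRCr8).
rno-miR-29a-3p: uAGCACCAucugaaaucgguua
rno-miR-29b-3p: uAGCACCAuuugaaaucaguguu
rno-miR-29c-3p: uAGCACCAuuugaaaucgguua
Of the 688 listed miRNAs with a sequence, these 3 (0.436%) were the only ones with the letters AGCACCA at bases 2 to 8. Counted from 1 at the 5′ end, miR-29a-3p and miR-29c-3p differed by the single substitution C10U. Between miR-29c-3p and miR-29b-3p there were 3 substitutions, G18A, U21G and A22U, and miR-29b-3p was 1 base longer. The last 6 bases of miR-29b-3p, AGUGUU, are known from other cells as an element that directs this member to the nucleus. Read along the mature strand, 2 of the 688 miRNAs (0.291%) ended in these letters, miR-29b-3p and miR-92b-5p.

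The members come from 4 hairpins in 2 neighboring pairs, and the hairpins are shown to locate both arms, which are given in capitals.
Mir29a: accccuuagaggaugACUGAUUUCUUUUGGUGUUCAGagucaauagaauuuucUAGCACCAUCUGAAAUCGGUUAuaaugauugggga
Mir29b1: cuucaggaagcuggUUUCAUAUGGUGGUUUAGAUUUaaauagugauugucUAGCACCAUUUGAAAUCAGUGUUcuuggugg
Mir29b2: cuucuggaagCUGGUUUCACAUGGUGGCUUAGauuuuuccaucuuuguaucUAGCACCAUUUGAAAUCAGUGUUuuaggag
Mir29c: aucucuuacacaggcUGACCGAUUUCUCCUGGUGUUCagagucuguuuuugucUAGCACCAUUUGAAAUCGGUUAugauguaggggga
In GRCr8, Mir29a (chr4:60617955-60618042, minus strand) and Mir29b1 (chr4:60618334-60618414, minus strand) lay 291 bases apart, and Mir29b2 (chr13:109098831-109098911, plus strand) and Mir29c (chr13:109099359-109099446, plus strand) lay 447 bases apart. The authors mapped their reads to another build, Rnor 6.0, so these positions locate the sequences and not the reads. miR-29b-3p is the same in both of its hairpins, so its reads cannot be assigned to either. The 5p arms differ, and the table lists that of Mir29b1 as miR-29b-1-5p and that of Mir29b2 as miR-29b-5p.

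The libraries held between 13464349 and 23770677 counts. Levels are given in CPM, the counts of a library scaled to a fixed total, with edgeR's TMM factors as correction between libraries; since each read is 1 miRNA, no correction for length was made. The neuronal markers miR-124-3p, miR-128-3p and miR-138-5p summed to between 54201 and 70512 CPM in every library, so the neuronal markers of the labelled tissue were present. The oligodendrocyte markers miR-219a-5p and miR-338-3p summed to only 23.7 to 35.6 CPM and overlapped between the groups. Of the markers fixed for other cell types, striated muscle (82.7 to 106 CPM) and hepatocyte (3.08 to 11.2 CPM) markers overlapped between the groups, as did vascular and mesenchymal markers, which lay between 21453 and 30520 CPM. The sum of the 3 myeloid markers was higher in every BCP rat, at 5.57 to 7.93 CPM against 0.658 to 2.31 CPM, but came from miR-223-3p alone, since miR-142-3p and miR-142-5p were listed at 0 in all libraries. The sum of the 4 epithelial markers was also higher in every BCP rat, at 22.9 to 36.4 CPM against 12.5 to 14.7 CPM. Only 1 of the 4, miR-200c-3p, had an adjusted p below 0.05 in edgeR. The mean of miR-200b-3p went the other way, at 1.89 CPM in BCP and 2.23 CPM in sham-operated rats, and its groups overlapped. Of all tested miRNAs, 3.92% had an adjusted p below 0.05 and 13.3% lay higher in every BCP rat. All 3 red cell markers in the table were listed at 0, and so was miR-21-5p, which most tissues express, so a value of 0 in this table does not show that a miRNA was absent. The part of these cell types in the levels of miR-29 was not tested. In whole tissue, fewer cells of a type and less RNA per cell cannot be told apart.

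miR-29a-3p was by far the most counted member. It had 196100, 119702 and 142298 counts in BCP rats 1, 2 and 3, and 106600, 100867 and 118152 counts in sham-operated rats 1, 2 and 3. It ranked between 25th and 31st of all listed miRNAs in every library. Its share of all counts assigned to the family lay between 98.4% and 98.7%. With all members added, the family took a mean of 0.879% of each BCP library (SD 0.0375, n = 3) and 0.757% of each sham library (SD 0.0907, n = 3).

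The other members ranked between 234th and 504th where they had counts. The mean level of miR-29a-3p over the 6 rats was 8059 CPM, which was 187-fold above the next member, miR-29c-5p, at 43.2 CPM. Next in order were miR-29c-3p at 30.7 CPM, miR-29b-5p at 23.4 CPM and miR-29b-3p at 18.9 CPM. The ranges of neighbors among these 4 overlapped over the 6 rats, while miR-29c-5p (37.9 to 46.2 CPM) lay wholly above both miR-29b arms and miR-29c-3p (23.3 to 39.1 CPM) wholly above miR-29b-3p (14.0 to 22.5 CPM). Within single rats, miR-29c-5p was above miR-29c-3p in 6 of 6 rats, miR-29c-3p above miR-29b-5p in 4 of 6, and miR-29b-5p above miR-29b-3p in 5 of 6. miR-29a-5p followed at 0.444 CPM, without overlap. miR-29b-1-5p was listed at 0 in all 6 libraries, where 3 counts, the limit that a count of 0 allows, would be 0.126 to 0.223 CPM; this limit covers counting error only.

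**Figure D1:**
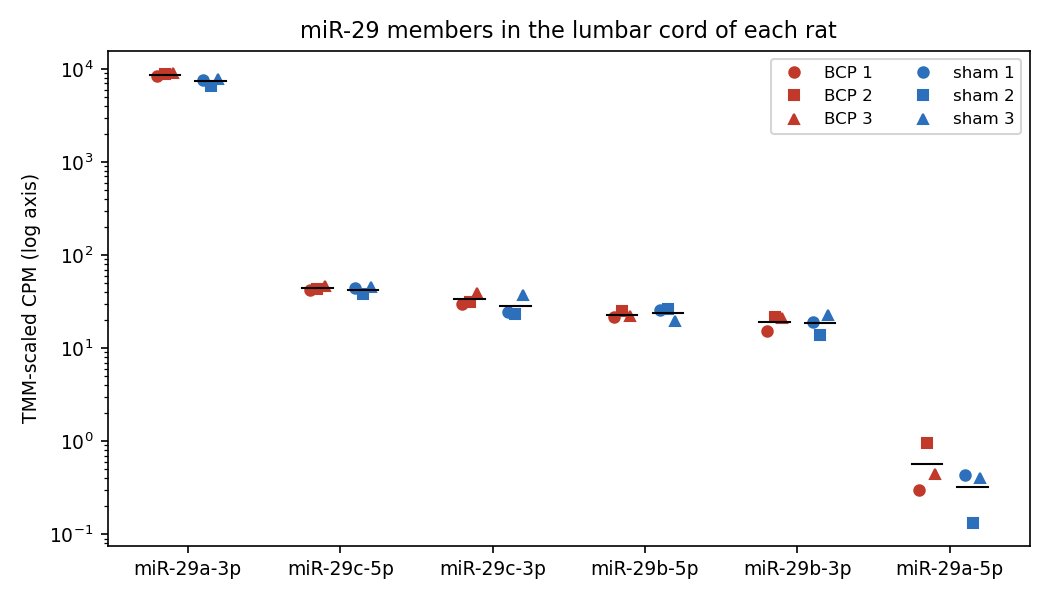
TMM-scaled CPM (log axis) of the 6 miR-29 members with counts, with 1 point for each rat (red for BCP, blue for sham-operated, and the symbol for the rat's number) and a black line at each group mean. miR-29a-3p stands at 8059 CPM on average, the next 4 members between 18.9 and 43.2 CPM and miR-29a-5p at 0.444 CPM, while the groups overlap on this scale in every member but miR-29a-3p, which overlaps too when libraries are scaled by their total counts.

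Both members that share nearly all of their sequence with miR-29a-3p were therefore listed far below it. miR-29c-3p had 2983 counts in all libraries together, which was 0.379% of the counts of the pair it forms with miR-29a-3p. Among the 21 pairs of listed miRNAs with equal length, a single different base and at least 1000 counts, this was the 4th lowest share, and the median was 14.3%. The 3 pairs below it were miR-1-3p with miR-1b, miR-664-2-5p with miR-664-1-5p, and miR-204-5p with miR-211-5p. The authors do not state how a read that matches 2 miRNAs was assigned, so the level of miR-29c-3p is uncertain to that extent. They also state that known miRNAs were identified by a length of 21 to 22 bases. miR-29b-3p has 23 bases in RefSeq, and miRNAs with 23 bases there took 21.4% of the counts that could be matched to a sequence. The lengths of the reads are not in the table, so the part of this limit in the level of miR-29b-3p was not tested.

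The 2 arms were then compared, since the arm that is kept differs between precursors. For Mir29a the 3p arm took nearly all counts. The 5p arm had 41 counts in the 6 libraries, against 783719 for the 3p arm, and its share was 0.00645% with BCP (SD 0.00388, n = 3) and 0.00423% after sham surgery (SD 0.00197, n = 3). For Mir29c, in contrast, the 5p arm held more listed counts than the 3p arm, with a share of 57.0% with BCP (SD 2.54, n = 3) and 60.5% after sham surgery (SD 4.93, n = 3). Because miR-29c-3p differs from miR-29a-3p by 1 base, this share is as uncertain as the assignment of their reads. For the pair of miR-29b-5p and miR-29b-3p, the 5p share was 54.6% with BCP (SD 3.50, n = 3) and 56.3% after sham surgery (SD 9.29, n = 3). The 3p reads of this pair come from both miR-29b hairpins, so this is not the arm share of Mir29b2 alone.

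Such balance was uncommon in the table. Of 226 precursors with both arms listed and at least 100 counts, 27 (11.9%) had at least 30% of their counts on the minor arm, and the median share of the minor arm was 2.02%. Precursors that share a mature arm, such as those of miR-9a, were each counted with the same pooled counts. miR-29c was listed as the 12th most balanced, a place that rests on its uncertain 3p counts, whereas miR-29a was among the 35 with a listed minor arm below 0.01%. The pair of miR-29b-5p and miR-29b-3p was counted above miR-29c, at 8th. Its 1803 counts on the 3p arm are those of both miR-29b hairpins, so neither hairpin can be ranked. The 5p arm of miR-29b-1 was listed at 0. Other precursors of the cord also departed from the arm that carries the usual marker. miR-338-3p, a marker of oligodendrocytes, had 2346 counts against 545529 for miR-338-5p, and miR-219a-5p, another, had 518 counts against 1451243 for miR-219a-2-3p. Whether these arm shares come from the tissue, from the libraries or from how reads were assigned was not tested.

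**Figure D2:**
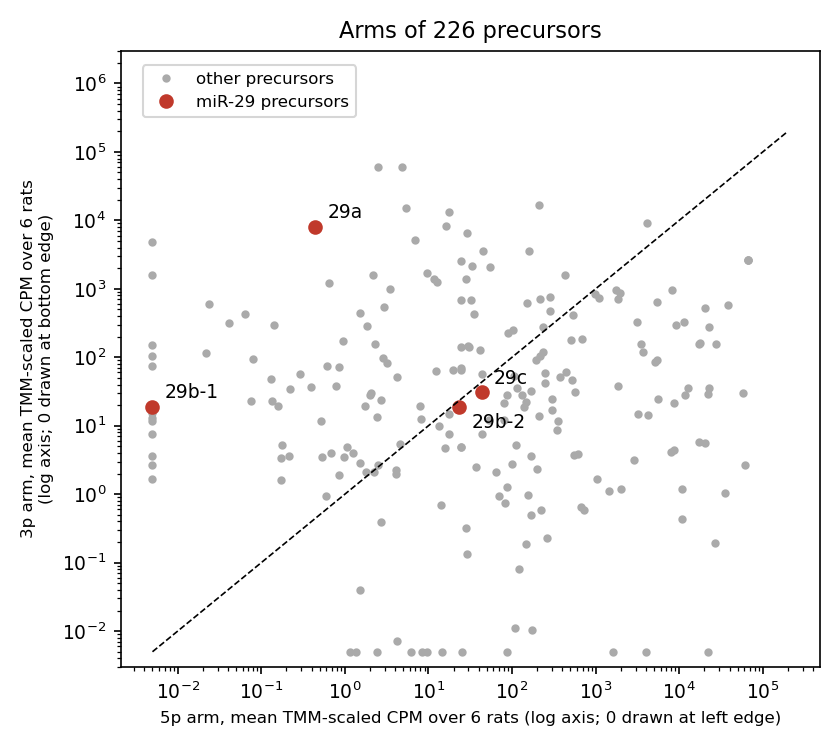
Mean TMM-scaled CPM of the 5p arm (x axis) and the 3p arm (y axis) over 6 rats for 226 precursors, on log axes with 0 drawn at the edge and a dashed line where both arms are equal. Mir29c and Mir29b2 lie near the line, with 58.4% and 55.5% of the plotted counts on the 5p arm. Both miR-29b points use the same pooled 3p counts, and the 3p counts of Mir29c are uncertain through the assignment of reads. Mir29a lies far above the line with 0.00523%, and Mir29b1 lies at the left edge with 0 counts on its 5p arm.

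The groups were compared by edgeR's quasi-likelihood test over all 459 miRNAs that passed the filter on low counts, among them 5 of the 7 members. None of these 5 reached the study's thresholds, an absolute log2 fold change above 0.8 with an adjusted p below 0.05, which 3.49% of all tested miRNAs reached, and none had an adjusted p below 0.05, which 3.92% had. At an unadjusted p below 0.05 there was 1 higher member of 5, miR-29a-3p, where the share of all tested miRNAs was 10.7%. It was also the 1 member of 5 for which every BCP rat lay above every sham-operated rat with TMM factors, as was the case for 13.3% of all tested miRNAs, but with total counts alone its groups overlapped. The count of 5 is too small to be read against these shares.

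miR-29a-3p had 8318, 8816 and 9000 CPM in BCP rats 1, 2 and 3, and 7685, 6634 and 7902 CPM in sham-operated rats 1, 2 and 3. On this scale all BCP rats were above all sham-operated rats, with the closest pair being BCP rat 1 and sham-operated rat 3. As a share of the library's total counts, sham-operated rat 3 (0.835%) was above BCP rat 1 (0.825%), so the groups overlapped. The means were 8711 ± 353 CPM and 7407 ± 678 CPM (SD, n = 3 rats each), and the log2 fold change was 0.23 (standard error 0.0966, 95% interval 0.011 to 0.46, edgeR adjusted p = 0.336). This difference did not pass the correction over all tested miRNAs. The interval, which did not include 0 with all rats, included it when any rat but sham-operated rat 3 was left out, with lower bounds from -0.078 to -0.014. With all 6 rats, its unadjusted p was above 0.05 in 9 of 11 alternative settings. The interval corresponds to a level between 1.01 and 1.37 times that of the sham-operated group.

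miR-29c-3p had a mean difference of the same size with a wider spread. Its level was 29.5, 31.4 and 39.1 CPM in BCP rats 1, 2 and 3, and 24.2, 23.3 and 36.8 CPM in sham-operated rats 1, 2 and 3. Sham-operated rat 3 was above BCP rats 1 and 2, so the groups overlapped. The log2 fold change was 0.24 (standard error 0.206, 95% interval -0.23 to 0.72, edgeR adjusted p = 0.674). It ranged from 0.10 to 0.46 when each rat was left out, the lowest without BCP rat 3 and the highest without sham-operated rat 3.

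miR-29b-3p, the member with the nuclear element, had 15.4, 21.5 and 20.9 CPM with BCP, against 19.3, 14.0 and 22.5 CPM after sham surgery, in the order of their numbers. The highest and the lowest level were both in the sham-operated group. The log2 fold change was 0.044 (standard error 0.209, 95% interval -0.44 to 0.53, edgeR adjusted p = 0.963). Its sign turned without sham-operated rat 2 (-0.13), BCP rat 2 (-0.039) or BCP rat 3 (-0.029).

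Of the 5p arms, miR-29c-5p had 42.4, 43.2 and 46.2 CPM with BCP, against 44.3, 37.9 and 45.1 CPM after sham surgery, with a log2 fold change of 0.051 (95% interval -0.23 to 0.33, adjusted p = 0.916 from edgeR). miR-29b-5p had 21.5, 25.2 and 22.1 CPM with BCP, against 25.5, 26.4 and 19.8 CPM after sham surgery, with a log2 fold change of -0.061 (95% interval -0.41 to 0.29, adjusted p = 0.916 from edgeR). Both overlapped between the groups. Without sham-operated rat 2 both signs turned, to -0.030 for miR-29c-5p and 0.013 for miR-29b-5p. With all 6 rats, the 95% interval of each of the 5 tested members lay within the fold change threshold of 0.8 on either side. For miR-29c-3p this did not hold when 1 rat was left out, since the upper bound was 0.85 without BCP rat 1, 0.88 without BCP rat 2 and 0.84 without sham-operated rat 3.

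The other 2 members did not pass the filter. miR-29a-5p had 7, 13 and 7 counts with BCP, against 6, 2 and 6 after sham surgery, which overlap once the depth of the libraries is taken into account. In a fit without the filter its log2 fold change was 0.72 with a 95% interval from -0.73 to 2.18 (adjusted p = 0.717 from edgeR), so a change of this minor arm was not resolved at this depth. miR-29b-1-5p had 0 counts and could not be compared.

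**Figure D3:**
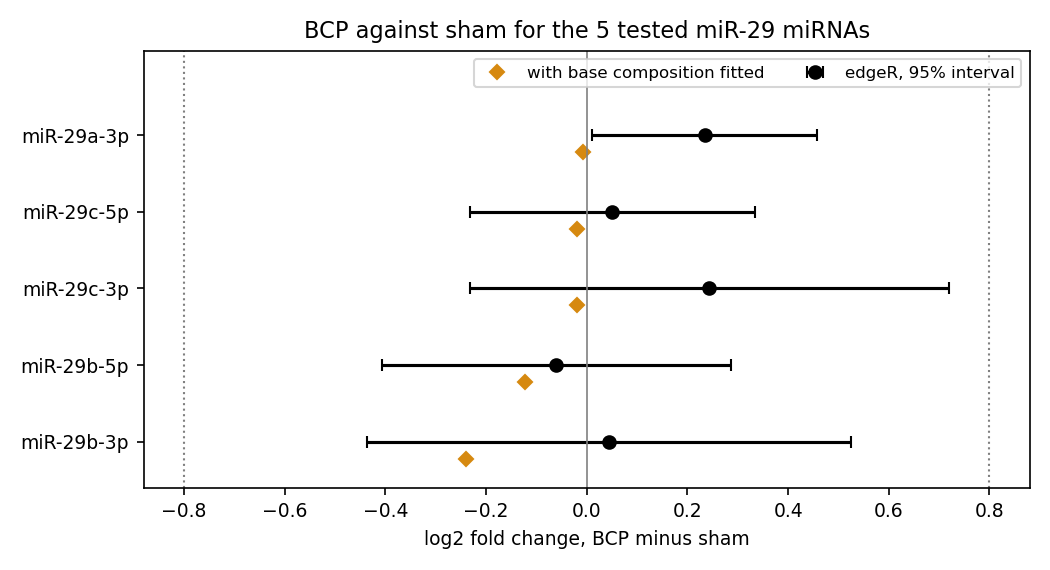
Log2 fold change, BCP minus sham, for the 5 tested members (black points, bars for the 95% interval of edgeR's quasi-likelihood test) and the same fit with base composition fitted in each library (orange diamonds); dotted lines mark the threshold of 0.8. The interval of miR-29a-3p runs from 0.011 to 0.46 and does not include 0, and its diamond lies at -0.0078.

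Ratios between members within a rat do not depend on how libraries are scaled, and 7 of them could be formed. The counts of miR-29a-3p were 410 to 540 times those of miR-29b-3p in the BCP rats and 351 to 474 times in the sham-operated rats. They were 230 to 282 times those of miR-29c-3p in the BCP rats and 214 to 317 times in the sham-operated rats. The ratio of miR-29c-5p to miR-29c-3p lay between 1.18 and 1.44 in the BCP rats and between 1.23 and 1.83 in the sham-operated rats. The groups overlapped in all 7 ratios, with p from 0.3 to 0.8 by two-sided exact permutation tests and an adjusted p of 0.8 for each, and the smallest p that groups of 3 allow is 0.1. The widest spread between rats among members with over 100 counts in each library was in the ratio of miR-29b-5p to miR-29b-3p. It was 0.878 in sham-operated rat 3 and 1.88 in sham-operated rat 2, a 2.14-fold difference within 1 group.

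**Figure D4:**
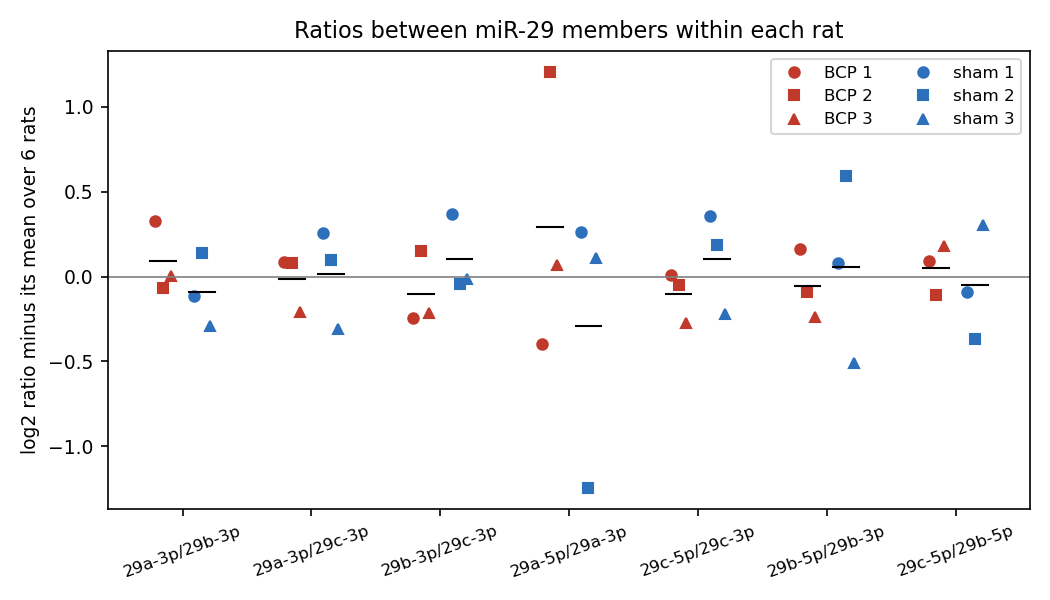
Log2 ratio of 2 members in each rat, minus the mean of that ratio over the 6 rats, for the 7 chosen ratios that could be formed (red for BCP, blue for sham-operated, symbols for the rat's number, black lines for group means). Groups overlap in each ratio, and sham-operated rats 2 and 3 stand 2.14-fold apart in the ratio of miR-29b-5p to miR-29b-3p.

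This spread within groups moved with the base composition of the miRNAs. Between sham-operated rats 2 and 3, the log2 difference of the 426 tested miRNAs with a sequence and counts in all libraries had a Pearson r of -0.528 with their GC content, and between BCP rats 1 and 3 the r was -0.611. These are descriptions across miRNAs, which share 2 libraries each and are not independent. miRNAs poor in G and C tended to stand higher in sham-operated rat 3 than in sham-operated rat 2, with exceptions. miR-29b-3p (34.8% GC) was 0.69 higher on the log2 scale in sham-operated rat 3, miR-29c-3p (36.4% GC) was 0.66 higher and miR-29a-3p (40.9% GC) was 0.25 higher. Of the 2 tested 5p members, which have more G and C, miR-29c-5p was 0.25 higher and miR-29b-5p had a difference of -0.41. Between BCP rats 3 and 1 the differences were 0.44 for miR-29b-3p, 0.41 for miR-29c-3p, 0.11 for miR-29a-3p, 0.12 for miR-29c-5p and 0.035 for miR-29b-5p, so the 3p members other than miR-29a-3p differed most in both pairs of rats.

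Set against the mean of all 6 libraries, GC content had a negative r in BCP rats 2 and 3 (-0.355 and -0.497) and sham-operated rat 3 (-0.232), and a positive r in BCP rat 1 (0.253) and sham-operated rats 1 and 2 (0.234 and 0.542). The 3 libraries with a negative r were the 3 with the most miR-29b-3p and also the 3 with the most miR-29c-3p. The log2 fold change between BCP and sham-operated rats had an r of -0.290 with GC content over the same 426 miRNAs. With the dependence on GC content fitted in each library and taken into edgeR's quasi-likelihood test over the 427 tested miRNAs with a sequence, an alternative chosen after seeing the data, the log2 fold change of miR-29a-3p was -0.0078 (standard error 0.0770, adjusted p = 0.980), and that of miR-29c-3p was -0.020 (standard error 0.124, adjusted p = 0.960). That of miR-29b-3p was -0.24 (standard error 0.102, adjusted p = 0.193). Over the same 427 miRNAs without the correction, the log2 fold changes were 0.23 for miR-29a-3p, 0.24 for miR-29c-3p and 0.038 for miR-29b-3p. Over all alternatives, those without 1 rat included, the adjusted p ranged from 0.166 to 0.980 for miR-29a-3p, from 0.133 to 0.995 for miR-29c-3p and from 0.193 to 0.996 for miR-29b-3p. This fit also takes up any true difference between the groups that runs with GC content, so the 2 cannot be told apart.

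**Figure D5:**
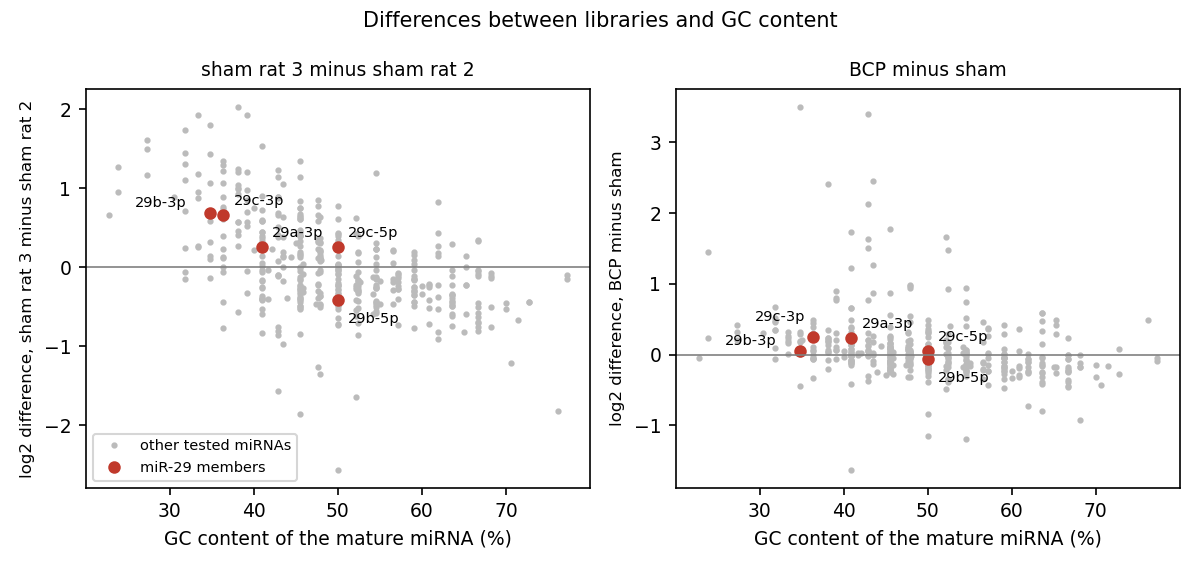
GC content of each mature miRNA (x axis, percent) against the log2 difference between sham-operated rats 3 and 2 (left) and between the BCP and sham-operated groups (right) for 426 tested miRNAs, with the 5 miR-29 members in red. The difference falls with GC content, with r = -0.528 on the left and r = -0.290 on the right, and miR-29b-3p and miR-29c-3p lie at the GC-poor end.

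Members of the family were also set beside the miRNAs whose levels followed theirs most closely over the 6 libraries, by Pearson r of log2 CPM among 453 others, as a description of so few libraries. For miR-29a-3p these were miR-130a-3p (r = 0.991), miR-19b-3p (r = 0.987) and miR-146a-3p (r = 0.984). For all 3 the lowest BCP rat lay above the highest sham-operated rat, as was the case for 13.3% of all tested miRNAs. They were picked for following miR-29a-3p, whose own groups did not overlap with TMM factors, so their separation follows largely from that choice. Of these, miR-146a-3p, the minor arm of an inflammation-linked precursor, had an adjusted p below 0.05 (log2 fold change 2.42, adjusted p = 0.0228 from edgeR), against a log2 fold change of 0.23 in miR-29a-3p. For miR-29b-3p they were miR-218a-5p (r = 0.978), miR-338-3p (r = 0.973) and miR-450a-5p (r = 0.972), and for miR-29c-3p miR-542-3p (r = 0.995), miR-592 (r = 0.963) and miR-24-2-5p (r = 0.962). The groups overlapped in all 6 of these, as they did in miR-29b-3p and miR-29c-3p, which these 6 were picked to follow.

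Other miRNAs linked to the extracellular matrix and fibrosis were read from the same test. Of 12 listed, 11 passed the filter, and 0 had an adjusted p below 0.05 in either direction (the smallest was 0.647 from edgeR). Their median log2 fold change was 0.016, against -0.0034 over all tested miRNAs, and 0 of the 11 were without overlap between the groups, where the shares over all tested miRNAs were 3.92% with an adjusted p below 0.05 and 18.5% without overlap in either direction. The most counted were miR-26a-5p (37576 ± 4052 CPM in BCP and 33956 ± 3249 CPM in sham-operated rats) and miR-30c-5p (22927 ± 904 CPM and 22676 ± 1541 CPM; SD, n = 3 rats each). The remaining member, miR-21-5p, a miRNA known to rise in fibrosis, was listed at 0.

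Of 12 miRNAs linked to neural maturation, all 12 passed the filter and 0 had an adjusted p below 0.05 (the smallest was 0.197 from edgeR, for miR-23a-3p). Their median log2 fold change was 0.034. The groups did not overlap for 2 of the 12, miR-23a-3p, which lay higher in the BCP rats (log2 fold change 0.31), and miR-138-5p, which lay lower (log2 fold change -0.12), against the same 18.5% over all tested miRNAs. miR-9a-5p, which acts in neural progenitors and neurons, had 70764 ± 5644 CPM in BCP and 62557 ± 4418 CPM in sham-operated rats (SD, n = 3 rats each). miR-128-3p, a neuronal miRNA, had 56611 ± 4782 CPM and 62170 ± 6727 CPM (SD, n = 3 rats each). miR-9a-5p and miR-128-3p overlapped between the groups.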

How the data were processed

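Small RNA was sequenced on an Illumina instrument in 6 libraries, each taken as 1 rat. The authors trimmed reads with the FASTX Toolkit, mapped clean reads to Rnor 6.0 with Bowtie2 2.2.3 and took known miRNAs from miRBase; the table they deposited holds raw counts, not normalized, for 753 mature miRNAs. The number of value columns not tied to a sample was 0. Counts were compared with edgeR 4.0.16 in R 4.3.3 (filterByExpr with a minimum count of 10, TMM factors, quasi-likelihood test, Benjamini-Hochberg over 459 miRNAs), and the code was tested on simulated data. Standard errors came from the log2 fold change and the F statistic. Ratios were tested with scipy 1.17.1. Of 9 ratios listed, the 2 with miR-29b-1-5p, which had 0 counts, could not be formed. Alternatives used DESeq2 1.42.0, limma 3.58.1, other filters, factors and tests, the replicate number as a block, leaving out each rat, and, chosen after seeing the data, a correction for GC content (loess with a span of 0.5 in each library) over the 427 tested miRNAs with a sequence, and the same set without it. Sequences are from RefSeq (GRCr8), which held 688 of the 753 names. The members and lists were chosen with earlier results of these data known. The miRNAs named were the family, the 3 most alike to each 3p member, and from each list any with an adjusted p below 0.05, otherwise the 2 with the most counts; miR-21-5p, miR-23a-3p, miR-138-5p, miR-200b-3p, miR-200c-3p, miR-338-5p, miR-219a-2-3p and the pairs with a single different base were named after their values were seen. No library was a copy of another (chi-square divided by its degrees of freedom, 59.0 to 635 within groups). Reads carry no molecular identifiers.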

Additional observations from a re-analysis of the deposited data

How the results depend on the processing

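The number of members called was 0 under every alternative run, including DESeq2, limma-voom, the replicate block and each fit without 1 rat. The count over all miRNAs, 16, was 25 with edgeR's likelihood ratio test and ranged from 8 to 20 when each rat was left out; it was 8 without BCP rat 2, 10 without BCP rat 3 and 9 without sham-operated rat 1. Over the 427 miRNAs with a sequence it was 19 both with and without the GC correction. With the correction the log2 fold change turned to -0.0078 for miR-29a-3p, -0.24 for miR-29b-3p, -0.020 for miR-29c-3p and -0.019 for miR-29c-5p, none with an adjusted p below 0.05. The other settings with all 6 rats kept the sign of each member and its side of the adjusted threshold. The unadjusted p of miR-29a-3p, 0.0417, was above 0.05 in 9 of 11 settings with all 6 rats, among them total counts (0.0662), RLE factors (0.0639), DESeq2 (0.118) and the replicate block (0.0572). Leaving out each rat gave a log2 fold change from 0.16 to 0.25 for miR-29a-3p and from 0.10 to 0.46 for miR-29c-3p, with no change of sign, and from -0.13 to 0.17 for miR-29b-3p, from -0.21 to 0.013 for miR-29b-5p and from -0.030 to 0.065 for miR-29c-5p, which changed sign. The log2 difference of the ratio ranged from -0.19 to 0.092 for miR-29a-3p to miR-29c-3p, from -0.39 to 0.16 for miR-29b-5p to miR-29b-3p, and from -0.051 to 0.28 for miR-29c-5p to miR-29b-5p, and the other 4 ratios kept their sign. Adding 1 count changed no sign. The cause of these changes was not tested. Equal replicate numbers do not mark the same animal. The correlation of deviations from the group means was -0.028, -0.43 and 0.61 for rats numbered 1, 2 and 3. Its mean was 0.048 for equal numbers and -0.026 for unequal numbers. These pairs are too few to show whether rats of equal number are linked. With the replicate block 18 miRNAs were called, 0 of them members. The block lowered the standard error of miR-29c-3p from 0.206 to 0.136. Depth limits miR-29a-5p, with 2 to 13 counts in a library.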
